A study of Bos taurus with 14 samples.

Results

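The genes described here are the 40 rows, of 27607 in the bovine count table, whose Ensembl identifiers fall in the number range ENSBTAG00000043544 to ENSBTAG00000043584, where the mitochondrial genome of the cow is annotated. The members were chosen by identifier alone, and 1 of the 41 possible identifiers was not among the rows used here. Gene symbols were paired with identifiers for 5 members: ND6 (ENSBTAG00000043546), CYTB (ENSBTAG00000043550), ND4L (ENSBTAG00000043559), COX3 (ENSBTAG00000043560) and ATP8 (ENSBTAG00000043564). The label was checked against the order of the rows. Of the 40 members, 37 stood in consecutive rows, the mitochondrial chromosome of the RefSeq annotation (ARS-UCD2.0) holds 37 genes, and the 5 named members followed each other in the same order in both. The 3 members elsewhere in the table had at most 53 counts in any library.

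The mitochondrial genome is a small circular molecule present in many copies per cell and inherited through the oocyte. In RefSeq its 37 genes comprise 13 protein-coding genes, 22 transfer RNAs and 2 ribosomal RNAs, and all 13 proteins are subunits of the oxidative phosphorylation machinery, whose other subunits are encoded in the nucleus. The oocyte supplies the mitochondria of the early embryo, which lives on maternal stores until its own genome becomes active (embryonic genome activation, EGA).

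Bovine embryos were profiled by RNA sequencing before and after EGA, and the question was how the environment in which EGA took place affected the embryonic transcriptome. All embryos were produced in vitro from abattoir oocytes and the semen of 1 bull. The 5 Day-2 libraries were made from embryos of 4 cells, and the 9 Day-4 libraries from embryos of 16 cells. On Day 4, 3 conditions were compared, with 3 libraries each: embryos left in in vitro culture (IVC), embryos transferred to the oviducts of primiparous Holstein-Friesian cows that were dried off at calving (DRY), and embryos transferred to the oviducts of such cows that were milked (LACT). Each library was a pool of 5 embryos, and in DRY and LACT the 5 embryos of a pool came out of the same cow, so that cow and pool cannot be told apart. Whether the pools of IVC or Day-2 embryos came from separate cultures was not given, so p-values measure the spread between these pools. In pooled embryos, fewer cells of a type and less RNA per cell cannot be told apart.

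Library totals were 27790816 to 30120040 counts on Day 2, 22711367 to 29625671 in IVC, 28465110 to 40357379 in DRY and 24334519 to 29953316 in LACT. Not all libraries of a Day-4 group were independent of each other. After scaling to the library total, IVC replicate 1, DRY replicate 3 and LACT replicate 3 lay midway between the other 2 replicates of the same condition. In these midpoint libraries 80.6% to 97.0% of genes with an expected count of at least 100 were within 1 standard deviation of counting error from that midpoint, the mean of the other 2, against 2.71% to 6.65% of genes in the other 11 libraries. For the 13 listed and the 2 abundant members described below, the midpoint libraries differed from it by -1.21% to 0.517%. Over all genes they differed from it by less than sampling noise, so they add no independent value, and each Day-4 group holds 2 such values. A test that counts 3 takes the spread as too small. Results of tests on Day-4 libraries are therefore given with all libraries and again without the 3 midpoint libraries (2 libraries per Day-4 group), which holds for the counts of members called and for ENSBTAG00000043561 in full. Why they lie at the midpoint was not tested. The markers of oocyte, cumulus, oviduct, blood or sperm cells were not analysed here, because the tables used pair too few identifiers with symbols.

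Members fell into 3 sets. Under terms for oxidative phosphorylation, the respiratory chain or the inner mitochondrial membrane, the study's term tables listed 13 members: 7 under complex I (the NADH dehydrogenase that takes electrons into the chain), 1 under complex III, 2 under complex IV (cytochrome c oxidase), 2 under ATP synthase, and 1, ENSBTAG00000043561, under the inner membrane term alone. The inner membrane term names no complex, so ENSBTAG00000043561 may belong to one of those above. Among the listed members in row order, it stood between a complex I member and the complex IV member without a symbol. COX1, a complex IV gene like COX3, stands between ND2 and COX2 in RefSeq. No symbol was paired with ENSBTAG00000043561, so its identity was not tested. The study drew up these term tables from gene clusters formed on the same libraries, over Day 2 and the Day-4 groups or over the Day-4 groups alone. Membership is therefore not independent of the change from Day 2 to Day 4 or of the differences between Day-4 groups. The 5 symbols likewise come from genes the study had selected for a difference between Day-4 groups. A pair of highly abundant members, ENSBTAG00000043567 and a second one, stood under none of these terms. The 13 listed members and this pair match in number the 13 protein-coding genes and 2 ribosomal RNAs of RefSeq. The pair may therefore be ribosomal RNAs, which the primers were meant to avoid, rather than messenger RNAs. No symbol was paired with either member, so this was not tested. The 25 remaining members were rare: 1 of them reached 8255 counts and the next highest 440. In all, 24 members passed the filter on low counts (the 13, the pair and 9 of the remaining 25). The 16 members that did not pass had at most 53 counts, and 3 of them had none in any library. Of those 9, 5 were under 1 CPM in every Day-2 library and passed through Day 4 alone, so they had to be higher there, and counts over the 24 describe the members tested only.

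The share of the library taken by the block rose from Day 2 to Day 4. The members took 19.4%, 12.3%, 13.6%, 20.2% and 11.3% of all counts in Day-2 replicates 1 to 5. In the replicates of each Day-4 group, in order, they took 44.2%, 43.9% and 44.2% in IVC, 49.2%, 44.8% and 46.5% in DRY, and 46.9%, 42.1% and 44.3% in LACT. The Day-2 and Day-4 libraries did not overlap, and the lowest Day-4 share, 42.1%, was above the highest Day-2 share, 20.2%. The mean was 15.4% ± 4.15 on Day 2 (SD, n = 5) and 45.1% on Day 4, a difference of 29.8 percentage points (exact permutation test, two-sided, p = 0.000999, adjusted p = 0.00400 over 12 share comparisons). This p is the smallest that 2002 labelings allow. With 2 libraries per Day-4 group the difference was 29.8 points (exact permutation test, p = 0.00433, the smallest possible). Counting error was small beside these differences: the widest 95% Wilson interval of a block share was ± 0.0204 points, which covers counting error only. A member ranked first in all 14 libraries. Among the 10 genes of highest count, 5 to 8 were members in the Day-2 libraries, and all 10 were members in every Day-4 library.

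**Figure D1:**
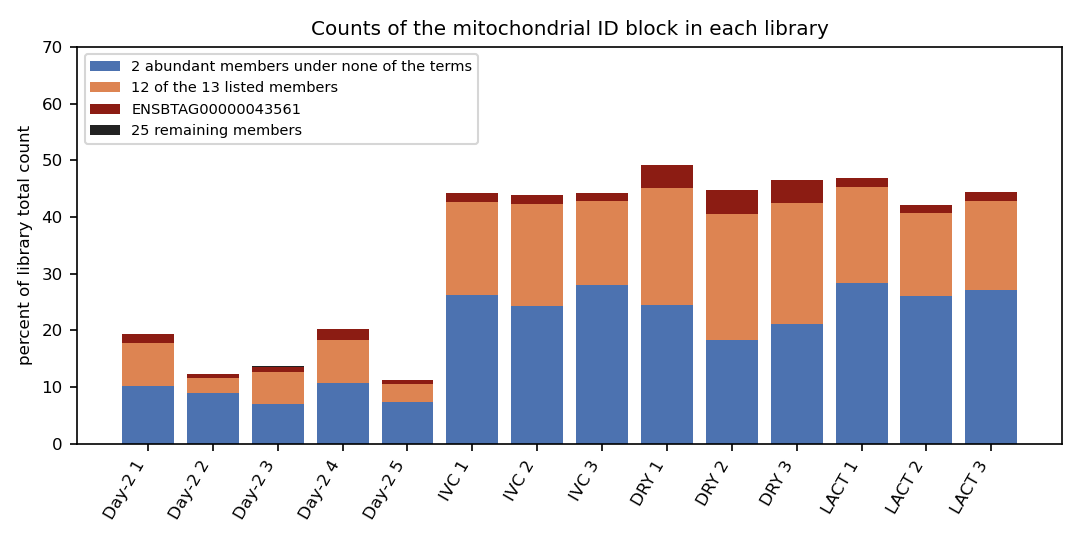
Percent of the library total (y axis) taken by the mitochondrial ID block in each of the 14 libraries (x axis), stacked by set of members. The Day-2 bars end between 11.3% and 20.2% and the Day-4 bars between 42.1% and 49.2%, and the ENSBTAG00000043561 segment is widest in DRY.

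A share of 42.1% or more leaves less of the library for all other genes, so the members were also set against the counts outside the block. For the block as a whole this ratio follows from the share, so it gives the same rise on another scale. No RNA amount per embryo was used here, so more RNA of the members and less RNA of other genes cannot be told apart. The ratio of block counts to all other counts had a mean of 0.184 on Day 2, 0.788 in IVC, 0.884 in DRY and 0.803 in LACT, a change of 2.17 on the log2 scale from Day 2 to the mean of the Day-4 libraries. The 13 listed members and the abundant pair moved by similar amounts on this scale, 2.24 and 2.11.

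Member by member, 23 of the 24 tested members had more counts on Day 4 (quasi-likelihood test of edgeR on 14 libraries, Benjamini-Hochberg adjusted over all 13390 genes tested, FDR under 0.05). None was lower. The 23 include members that passed the filter through Day 4 alone, and support nothing beyond the 13 listed members and the pair. Of all genes tested, 30.9% were higher by the same rule. The median log2 fold change of all genes was -0.03 with the TMM scaling used here and 0.12 with DESeq2 size factors, a shift far below the members' changes. With 2 libraries per Day-4 group, 19 of 24 members passed, all higher, against 24.5% of genes. All 13 listed members and both abundant members passed in either case. The median log2 fold change of the 13 was 2.11 with all libraries and 2.14 without the midpoint libraries, where their highest FDR was 0.0115 by the same test.

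Complex I is the entry point of electrons from NADH, and ND6 and ND4L are 2 of its membrane subunits. ND6 had 2802, 475, 2328, 2988 and 559 CPM (counts scaled by TMM-adjusted library totals) in Day-2 replicates 1 to 5. On Day 4 it had 7684, 10248 and 6207 CPM in IVC, 11499, 10989 and 10095 CPM in DRY, and 8725, 5702 and 7138 CPM in LACT. All Day-4 libraries were above all Day-2 libraries, and the log2 fold change was 2.23 (SE 0.42, FDR 3.62e-04 from edgeR's quasi-likelihood test). ND4L had 332 to 1199 CPM on Day 2 and 2362 to 4821 CPM on Day 4, again without overlap, with a log2 fold change of 2.18 (SE 0.32). The 5 complex I members without a symbol all passed, with log2 fold changes between 1.97 and 2.45. In the RefSeq annotation ND6 overlaps ND5, ND4L overlaps ND4, and ATP6 overlaps both ATP8 and COX3. The library preparation kept the strand of the RNA, but how reads in such overlaps were counted, and with which strand setting, was not given in the sources used here. The levels of ND6, ND4L, ATP8 and COX3, and ratios to COX3, are uncertain to that extent.

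CYTB, the mitochondrially encoded subunit of complex III, had 7112, 2445, 5511, 8828 and 2225 CPM in Day-2 replicates 1 to 5. It had 17746, 20060 and 17622 CPM in IVC, 26631, 27958 and 24613 CPM in DRY, and 19073, 13720 and 16284 CPM in LACT. Its log2 fold change from Day 2 to Day 4 was 1.94 (SE 0.31, FDR 7.77e-05 from edgeR's quasi-likelihood test). COX3, a core subunit of complex IV that does not itself bind the catalytic metals, had 9138, 4738, 6727, 12058 and 3611 CPM on Day 2. Its Day-4 levels were 20988, 21610 and 22858 CPM in IVC, 35587, 30616 and 29593 CPM in DRY, and 21431, 15495 and 18340 CPM in LACT. The lowest Day-4 library was again above the highest Day-2 library, and the log2 fold change was 1.69 (SE 0.25). The other member listed under complex IV, without a symbol, had a log2 fold change of 2.08.

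ATP8 is a small subunit of the membrane part of ATP synthase. It had 445, 148, 404, 506 and 141 CPM in Day-2 replicates 1 to 5. On Day 4 it had 1620, 2062 and 1396 CPM in IVC, 2870, 2385 and 2346 CPM in DRY, and 1568, 1427 and 1500 CPM in LACT. With 2.50 (SE 0.32, FDR 8.94e-06 from edgeR's quasi-likelihood test), it had the highest log2 fold change of the 13 listed members. The other ATP synthase member changed by 2.29.

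**Figure D2:**
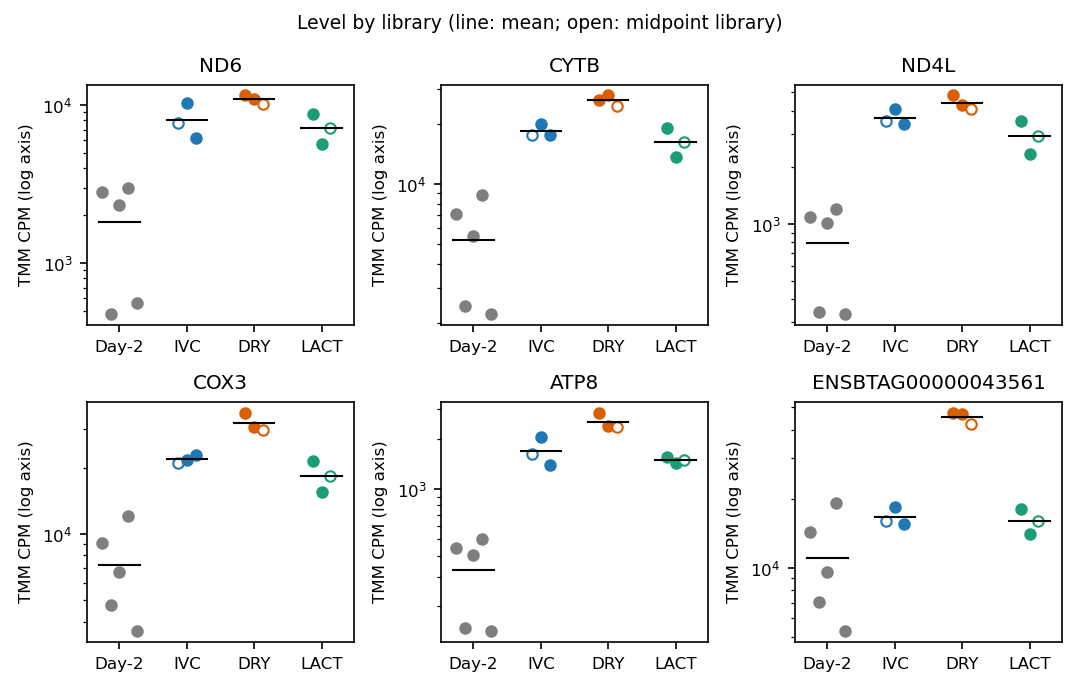
TMM-scaled CPM on log axes for the 5 members with a symbol and ENSBTAG00000043561, 1 point per library, with group means as lines and open points for the 3 midpoint libraries. For the 5 named members every Day-4 point lies above every Day-2 point, while ENSBTAG00000043561 overlaps between Day 2 and the IVC and LACT groups and stands higher in DRY.

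ENSBTAG00000043561 was the exception among the 13 listed members. It had 14255, 7059, 9543, 19092 and 5264 CPM in Day-2 replicates 1 to 5. It had 15949, 18442 and 15451 CPM in IVC and 18025, 14045 and 15973 CPM in LACT, but 47357, 46898 and 42379 CPM in DRY. All IVC and LACT levels lay inside the Day-2 range, whereas the lowest DRY library, at 42379 CPM, was above every library of the other 3 groups. Of the 13 members, 12 did not overlap between Day 2 and Day 4 (20.4% of all genes tested were higher on Day 4 without overlap), and ENSBTAG00000043561 was the 1 that did.

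The difference was clearest with each Day-4 group set against Day 2. ENSBTAG00000043561 had a log2 fold change of 0.59 in IVC (SE 0.32, FDR 0.129) and 0.54 in LACT (SE 0.32, FDR 0.169), neither of which passed edgeR's quasi-likelihood test, and 2.04 in DRY (SE 0.32, FDR 1.01e-04). Without the midpoint libraries the values were 0.62 in IVC (FDR 0.250), 0.54 in LACT (FDR 0.315) and 2.10 in DRY (FDR 0.00157) by the same test. The other 12 listed members had log2 fold changes of 1.59 to 2.40 in IVC, 1.34 to 2.41 in LACT and 2.14 to 2.95 in DRY. In DRY ENSBTAG00000043561 was thus just below the range of the other 12, and in IVC and LACT it was well below it. Of the 24 tested members, 19 were higher than Day 2 in IVC (29.7% of all genes), 22 in DRY (27.4% of all genes) and 22 in LACT (29.7% of all genes). Without the midpoint libraries the counts were 15 in IVC (21.9% of all genes), 17 in DRY (19.5% of all genes) and 16 in LACT (21.6% of all genes). The 24 include rare members that passed the filter through Day 4 alone, so these counts do not compare the groups. Of the 13 listed members, 12 were higher in IVC, 13 in DRY and 12 in LACT, with and without the midpoint libraries. The 3 comparisons share the Day-2 libraries.

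**Figure D3:**
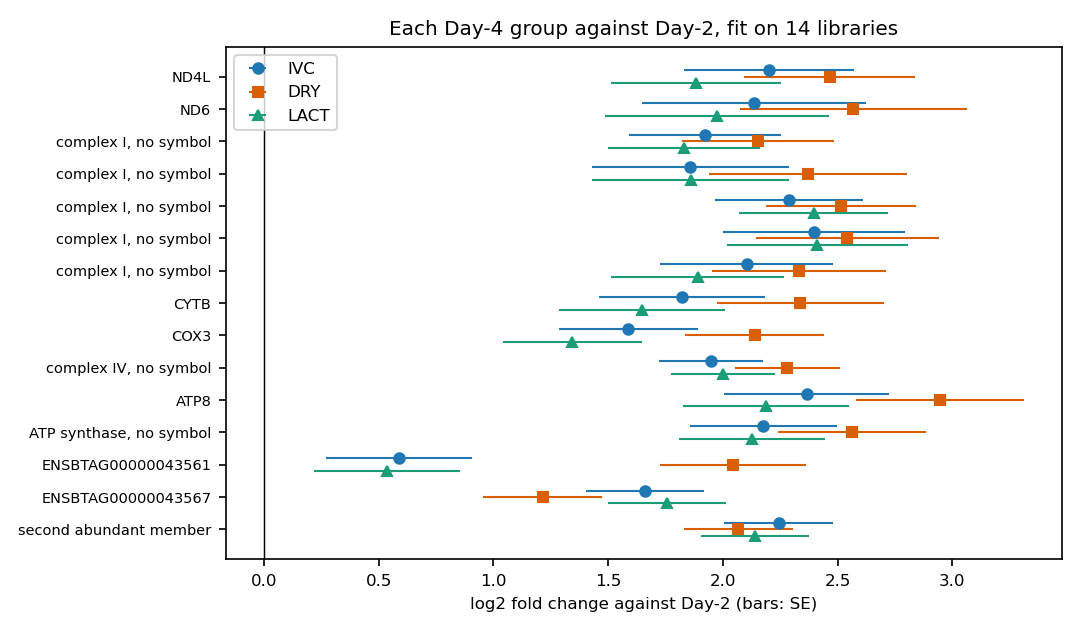
Log2 fold change of each Day-4 group against Day 2 (x axis, bars are SE) for the 13 listed and the 2 abundant members, from the fit on 14 libraries. All points are above 0, and ENSBTAG00000043561 lies at 0.59 in IVC and 0.54 in LACT but at 2.04 in DRY.

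The scaling of the libraries cancels when members are compared inside a library. ENSBTAG00000043561 took 18.4%, 23.8%, 15.2%, 20.3% and 20.5% of the counts of the 13 listed members in Day-2 replicates 1 to 5. It took 8.34%, 7.99% and 8.76% in IVC and 8.42%, 8.84% and 8.62% in LACT, but 16.1%, 16.3% and 16.2% in DRY. The DRY libraries thus lay within the Day-2 range, with no overlap with IVC or LACT. Counting error was at most ± 0.0863 points (95% Wilson interval). Against COX3 alone, its count ratio was 1.56, 1.49, 1.42, 1.58 and 1.46 in Day-2 replicates 1 to 5, with 0.760, 0.853 and 0.676 in IVC, 1.33, 1.53 and 1.43 in DRY, and 0.841, 0.906 and 0.871 in LACT. These within-library values are a description and were given no test.

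**Figure D4:**
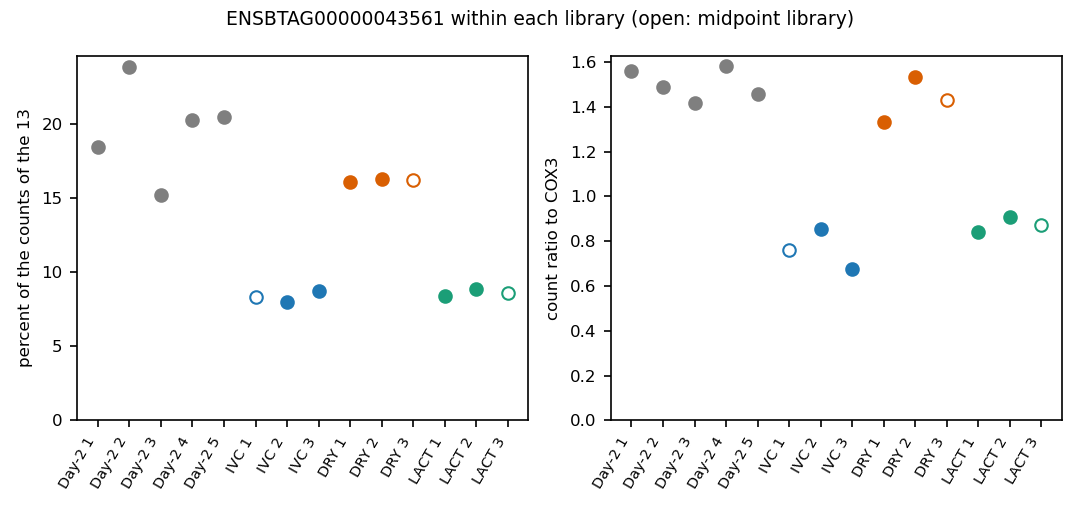
ENSBTAG00000043561 within each of the 14 libraries, as percent of the counts of the 13 listed members (left) and as count ratio to COX3 (right), with open points for the 3 midpoint libraries. DRY lies at 16.1% to 16.3% and at ratios of 1.33 to 1.53, near Day 2, and IVC and LACT lie at 7.99% to 8.84% and at ratios of 0.676 to 0.906.

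Between the Day-4 groups, the total of the block differed by less than its make-up. DRY exceeded LACT by 2.38 percentage points of the library (exact permutation test, two-sided, p = 0.3) and IVC by 2.78 points (exact permutation test, p = 0.1), and LACT exceeded IVC by 0.394 points (exact permutation test, p = 0.7). Without the midpoint libraries the differences were 2.48, 2.99 and 0.509 points. The 13 listed members took 24.7%, 26.5% and 25.4% of the library in DRY, 17.9%, 19.5% and 16.1% in IVC, and 18.5%, 16.1% and 17.2% in LACT. DRY was higher by 8.26 points than LACT and by 7.70 points than IVC, without overlap in either case. Both p-values were 0.1, the smallest that an exact permutation test of 3 against 3 can give, and with 2 against 2 the smallest is 0.333, so neither design can reach 0.05. Leaving out the midpoint libraries gave differences of 8.31 and 7.81 points. LACT minus IVC was -0.557 points (exact permutation test, p = 0.8). The abundant pair ran the other way, with 24.5%, 18.3% and 21.1% in DRY, 26.3%, 24.4% and 28.1% in IVC, and 28.4%, 26.0% and 27.1% in LACT. DRY minus LACT was -5.88 points without overlap (exact permutation test, p = 0.1), and DRY minus IVC was -4.93 points with overlap (exact permutation test, p = 0.2). Leaving out the midpoint libraries gave -5.84 and -4.82 points.

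For DRY against LACT, 6 members were higher and 1 was lower with all 9 Day-4 libraries, where 4.01% of 12069 genes were higher and 5.64% lower (edgeR's quasi-likelihood test, FDR under 0.05). The 6 higher members were CYTB (log2 fold change 0.75, SE 0.14, FDR 0.0143), ND4L (0.64), COX3 (0.85), ATP8 (0.82), the other ATP synthase member (0.50) and ENSBTAG00000043561. All 6 stood in the term tables, and 4 of them were among genes the study had selected for a difference between Day-4 groups, so these counts are not independent evidence of that difference. ND6 did not pass, at 0.65 (SE 0.21, FDR 0.0823). The 1 lower member was ENSBTAG00000043567, at -0.48 (SE 0.11, FDR 0.0267). With 2 libraries per Day-4 group, ENSBTAG00000043561 was the only member that passed, and 0.0989% of genes were higher. Its log2 fold change was 1.57 with all 9 libraries (SE 0.14, FDR 2.86e-04) and 1.58 with 6 (FDR 0.0244 by the same test). The values of the other members hardly moved with 6 libraries, CYTB to 0.76 (FDR 0.528) and COX3 to 0.87 (FDR 0.431), and it was their adjusted p-values that changed. All 13 listed members had a positive log2 fold change in DRY against LACT, with a median of 0.57 beside -0.03 for all genes. DRY lay above LACT without overlap for 10 of the 13 members, against 13.2% of all genes. Since the 13 come from lists that the study made with these groups in view, neither count is independent evidence of the direction.

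For DRY against IVC, 4 members were higher and 1 lower with all 9 libraries, where 5.95% of genes were higher and 7.87% lower. Passing higher were ENSBTAG00000043561 (log2 fold change 1.44, SE 0.14, FDR 4.00e-04 from edgeR's quasi-likelihood test), COX3 (0.54, FDR 0.0381), CYTB (0.50, FDR 0.0478) and the rare member ENSBTAG00000043580, which passed the filter only through the oviduct groups, so that its call supports no difference. ENSBTAG00000043567 was lower, at -0.46 (FDR 0.0253). Again ENSBTAG00000043561 was the only member that passed with 2 libraries per Day-4 group, at 1.49 (FDR 0.0325), where 0.173% of genes were higher. The 13 listed members were positive in this comparison too, with a median of 0.37 beside -0.08 for all genes, which again is not independent of how the 13 were listed. The 2 comparisons share the DRY libraries.

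For LACT against IVC, none of the 13 listed members passed, their log2 fold changes ran from -0.39 to 0.04, and 1 of them had an unadjusted p under 0.05 (edgeR's quasi-likelihood test with 9 libraries). DESeq2 called none of the 13 either. The 1 member called was the rare ENSBTAG00000043580, let in by the filter through the oviduct groups alone, so that its call supports no difference. Of all genes, 3.94% were higher in LACT. With 2 libraries per Day-4 group no member passed, none had an unadjusted p under 0.05, and 0.429% of genes passed in either direction.

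**Figure D5:**
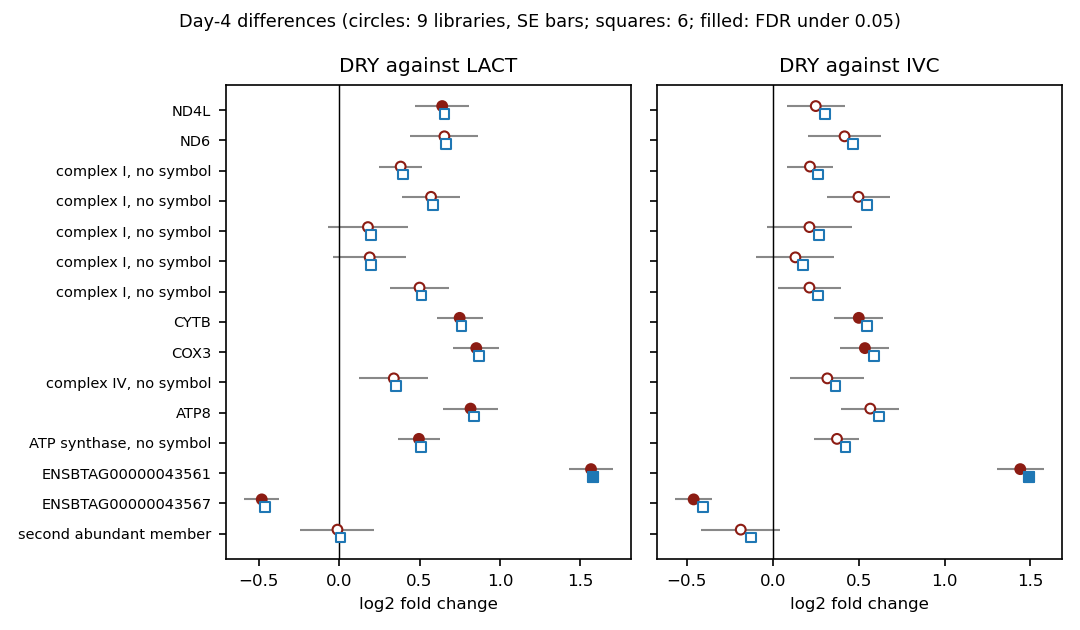
Log2 fold changes of DRY against LACT and of DRY against IVC (x axes) for the 13 listed and the 2 abundant members, as circles with SE bars for the fit on 9 Day-4 libraries and as squares for 2 libraries per group, filled where the FDR was under 0.05. The 13 listed members all lie above 0, and ENSBTAG00000043561 is the only member filled in both fits.

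ENSBTAG00000043580 was at or near 0 in Day-2 and IVC embryos and detected in both oviduct groups. It had counts of 0, 0, 0, 2 and 0 in Day-2 replicates 1 to 5 and of 0, 1 and 1 in IVC. In DRY it had 41, 51 and 34 counts, and in LACT 25, 34 and 21. All oviduct libraries were above all other libraries, at a level of 0.93 to 1.56 CPM, and a count of 0 allows up to 3 counts, or 0.0743 to 0.132 CPM on the library total. Since the filter kept it only for its level in the oviduct groups, its values are a description with no test. No fold change is given because both other groups were at or under 3 counts in every library.

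The listed members varied between the Day-2 libraries. The highest Day-2 library exceeded the lowest by a median of 3.59 times over the 13 listed members, beside 2.69 times over the 7547 genes of at least 5 CPM. ND6 had the widest range, 6.30 times, and the member listed under complex IV without a symbol the narrowest, 1.77 times. For all 13 members, replicates 2 and 5 were the lowest 2 Day-2 libraries. In those replicates the listed members took 3.30% and 3.98% of the library, against 6.66% to 9.46% in the other 3, while the abundant pair took 9.0% and 7.32%, inside the range of 6.94% to 10.8% of the others. The count ratio of the 13 to the pair was 0.366 and 0.544 in replicates 2 and 5, and 0.878 to 0.959 in the other Day-2 libraries. The count ratio of ND6 to CYTB was also lowest there, at 0.194 and 0.251, beside 0.338 to 0.422 in the other Day-2 libraries and 0.352 to 0.511 on Day 4. Within Day-4 groups the median coefficient of variation of the 13 was 6.85% in DRY, 15.9% in IVC and 16.4% in LACT, against 52.4% on Day 2. Over all genes of at least 5 CPM the median was also higher on Day 2, at 40.3%, beside 28.0% in DRY, 24.6% in IVC and 22.6% in LACT. The Day-4 values include the midpoint libraries.

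Nuclear genes of the same machinery were taken from the same term tables, 51 in all, each of them tested. From Day 2 to Day 4, 49 of the 51 were higher and none lower, where 30.9% of all genes were higher (edgeR's quasi-likelihood test on 14 libraries). Their median log2 fold change was 4.14, beside 2.11 for the 13 mitochondrial members and -0.03 for all genes. The tables were drawn up by the study on these libraries, so this direction is not independent evidence. For DRY against LACT 5 of the 51 were higher and none lower, with a median of 0.13 beside -0.03 for all genes, of which 4.01% were higher. For DRY against IVC 2 were higher and 1 lower, where 5.95% and 7.87% of all genes were, with a median of -0.27 beside -0.08. For LACT against IVC 3 were lower and none higher, where 4.50% of all genes were lower, with a median of -0.32 beside -0.03. Without the midpoint libraries, 0 of the 51 passed in any of these 3 comparisons by the same test, and 3, 0 and 1 had an unadjusted p under 0.05. Few genes of any kind passed there: 0.668%, 0.734% and 0.429% of all genes in the same order. Of the 4 nuclear genes with a symbol, ATP5MF (an ATP synthase subunit), SDHD (a membrane anchor of complex II), COX11 (an assembly factor of complex IV) and ATP6V0A2 (a subunit of the vacuolar proton pump, which is outside the respiratory chain) were higher in DRY than in LACT by 1.45, 1.39, 1.82 and 1.51 on the log2 scale with all 9 libraries. They were among genes the study had selected for that difference. In DRY against IVC, COX11 alone of the 4 passed, at 1.11 (FDR 0.0348 from edgeR's quasi-likelihood test). ATP6V0A2 had a log2 fold change of -0.06 from Day 2 to Day 4, and the other 3 were between 2.87 and 5.14.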

How the data were processed

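Gene counts of 14 bovine embryo libraries were used as deposited by the authors: raw counts per Ensembl gene, without normalization. Per the labels, total RNA was converted to cDNA with primers meant to avoid ribosomal RNA, without polyA selection or ribosomal depletion (NuGEN Encore Complete, single-end reads), although the molecule field reads polyA RNA. The submitters' processing notes name FastQC 0.11.9, Trimmomatic, STAR 2.7.0b and featureCounts of Subread 2.0.3. Library preparation kept strand information, but the strand and multi-mapping settings of the counting and the annotation release were not given in the sources used here. Reads shared with nuclear copies of mitochondrial DNA could therefore be lost or split. No other column of per-sample values was present.

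Shares of the library total were compared by exact permutation tests, two-sided. Members were tested with edgeR 4.0.16 (R 4.3.3, robust quasi-likelihood, TMM, at least 1 CPM in at least 3 libraries), Benjamini-Hochberg adjusted over all genes tested, at an FDR under 0.05. Day 2 entered a fit on 14 libraries and Day-4 pairs a fit on the 9 Day-4 libraries. With 2 libraries per Day-4 group (11 libraries in all), the filter asked for at least 1 CPM in at least 2 libraries. Alternatives were DESeq2 1.42.0 (Wald test, size factors), scaling on genes outside the block, other filters, the likelihood ratio test with observation weights, a replicate block, a fit on 14 libraries for the pairs, and each library left out. The fits were also run on simulated data, with independent libraries and a common dispersion for all genes. Those data held no midpoint libraries, so they do not test the Day-4 fits under that dependence. Intervals and the limit of 3 counts cover counting error only.

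The members, the lists and the alternative with 2 libraries per Day-4 group were chosen with earlier results of these data known. Members were named by symbol where the study's gene table pairs it with an identifier. Those singled out by identifier (ENSBTAG00000043561, ENSBTAG00000043567 and ENSBTAG00000043580) and the second abundant member were chosen after their values were seen. The symbol lists of the design could not be used, since the tables used pair too few identifiers with symbols, and term tables of the study took their place. Sequences and coordinates were not used here.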

Additional observations from a re-analysis of the deposited data

Results flagged for a closer look

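ENSBTAG00000043561 also differed between Day-4 groups in the fit on all 14 libraries. Its log2 fold change against Day 2 was higher in DRY than in LACT by 1.51 (SE 0.37, FDR 0.0357) and than in IVC by 1.45 (SE 0.37, FDR 0.0319), by edgeR's quasi-likelihood test of the difference itself. Day 2 cancels from these differences. They are the DRY comparisons given above with scaling and spread taken from 14 libraries, and not a separate result. In the fit on Day-4 libraries alone without the midpoint libraries, the differences were 1.58 (FDR 0.0244) and 1.49 (FDR 0.0325) by the same test. Every DRY library lay above every IVC and LACT library. ENSBTAG00000043580 had 1 Day-2 library far from the others of its group, replicate 4 at 0.0715 CPM, which is 2 counts against 0 in the other 4 libraries. This is under the limit of 3 counts. With 0 in the other 4 libraries, any count above 0 would have been flagged, so the flag carries no weight.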

How the results depend on the processing

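The rise of the block from Day 2 to Day 4 kept its direction and its side of the threshold under every alternative tried, with a share difference of 28.7 to 31.0 points and 22 to 23 members called when single libraries were left out. ENSBTAG00000043561 in DRY against LACT and against IVC also passed under all 18 alternatives each (FDR up to 0.0357 and 0.0325, edgeR and DESeq2), as did its Day-4 rise under all 22. That rise is a mean over the Day-4 groups, with a log2 fold change of 1.06 in the fit on 14 libraries. It was carried by DRY, at 2.04, while IVC at 0.59 and LACT at 0.54 did not pass against Day 2.

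Counts of members called between Day-4 groups did not hold. Without the midpoint libraries, 1 member passed for DRY against IVC, 1 for DRY against LACT and 0 for LACT against IVC, where fewer libraries entered the fit. In the same order, 0.734%, 0.668% and 0.429% of all genes passed there. In the fit on 14 libraries, which pools the Day-2 spread, the counts were also 1, 1 and 0, beside 6.16%, 4.15% and 3.41% of all genes. Without a filter on low counts they were 3 for DRY against IVC and 0 for LACT against IVC, and with at least 10 counts in every library 0 for LACT against IVC, since ENSBTAG00000043580 was no longer tested. The DESeq2 Wald test called 8 members for DRY against IVC, where it called 26.1% of all genes, beside 13.8% with edgeR's quasi-likelihood test. Why it called more was not tested. The 8 include ENSBTAG00000043567, which was lower at -0.42, and ENSBTAG00000043580, whose call supports no difference. Leaving out single libraries gave 1 to 7 members for DRY against IVC and the same range, 1 to 7, for DRY against LACT, and 0 to 1 for LACT against IVC. The shares of all genes ranged from 3.88% to 17%, from 2.15% to 10.8% and from 1.02% to 12.7% in these comparisons. The lowest count of 1 came in both DRY comparisons without LACT replicate 3, and for DRY against IVC also without DRY replicate 3. Both are midpoint libraries.

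With the replicate number as a block, 3 members passed for DRY against IVC, 5 for DRY against LACT and 0 for LACT against IVC. Of all genes, 7.75%, 4.66% and 4.05% passed in these comparisons. Libraries of the same number correlated at -0.05 to 0.11 in their deviations from group means, so no pairing by number was seen. The midpoint libraries lie near their group means and their deviations are mostly noise, so these values cannot decide whether the numbers pair the samples.

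The block share of LACT against IVC turned to -0.557 points over the listed 13 alone and ranged from -0.832 to 1.56 points with single libraries left out. Directions that turned were all of differences that had not passed. In DRY against LACT, the second abundant member, ENSBTAG00000043570, moved to 0.0075 with 2 libraries per Day-4 group, 0.0068 without a filter and 0.030 with scaling on genes outside the block, and ranged from -0.37 to 0.18 with single libraries left out. With single libraries left out it ranged from -0.49 to 0.0041 for DRY against IVC and from -0.29 to 0.068 for LACT against IVC. In LACT against IVC, ENSBTAG00000043567 moved to -0.0060 with scaling on genes outside the block, and with single libraries left out ND6 ranged from -0.35 to 0.018 and ENSBTAG00000043561 from -0.17 to 0.062.

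ENSBTAG00000043580 had at most 51 counts in any library. What limited the other calls between Day-4 groups was not tested.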
